A study of Homo sapiens with 4 samples.

Results

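The genes described here are 10 secreted signals of inflammation: the chemokines CXCL1, CXCL2, CXCL3, CXCL5, CXCL6, CXCL8 and CCL20, the IL6-type cytokines IL6 and LIF, and CSF3. They were picked by name from the gene table of the series, where they are 10 of 58735 genes, and 9 of them had enough reads to be tested. RNA-seq was performed in HCC1954, an established human breast cancer cell line with amplified ERBB2, in 2 samples with a scrambled control hairpin (shCON) and 2 samples with a hairpin against ZDHHC15 (shZDHHC15). ZDHHC15 belongs to the DHHC enzymes that attach palmitate to proteins, and the study asked how gene expression changed when it was depleted. Both groups received GIPZ hairpin plasmids. Of the labels, the series design speaks of stable knockdown, whereas the treatment protocol has plasmids transfected transiently and cells harvested after 36 h. The study's methods screened monoclonal cultures for hairpin lines, so a group may stem from 1 clone. Whether the samples of a group are separate cultures or carry different hairpins is not stated. The p-values rest only on the spread between these samples, pooled in part across genes, and that spread may be technical.

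The 4 libraries held between 17560982 and 19118704 counts. ZDHHC15 itself had 17617 and 15716 counts in shCON and 0 in both shZDHHC15 samples, each of which allows up to 3 counts. A hairpin usually leaves some transcript, and why no count was left here was not tested. Across the 15817 tested genes, 42.0% passed an adjusted p of 0.05 in either direction, 21.7% higher and 20.3% lower in shZDHHC15. A change in 1 gene is therefore common in this comparison. Levels below are CPM, that is counts relative to library size, scaled by the TMM factors of edgeR. The line was checked against 10 epithelial and ERBB2-amplicon markers, of which 8 were lower and 1 higher in shZDHHC15; their summed level was 27640 and 30356 CPM in shCON and 15046 and 16104 CPM in shZDHHC15. Of 12 leukocyte markers, FCGR3A, AIF1, CD3E and TYROBP were at 0 in all samples, PTPRC had at most 4 counts, and the 12 summed to between 5.80 and 12.0 CPM. The 2 leukocyte markers that were tested were both called: CSF1R, most of that sum, had 153 and 177 counts in shCON and 68 and 105 in shZDHHC15 (log2 fold change -1.06, adjusted p = 0.00134), and CD14 had 9 and 5 against 25 and 22 (1.61, adjusted p = 0.0158, a call lost in 3 of its 10 alternatives). Of 10 fibroblast and endothelial markers, 3 were tested and all 3 were higher (CDH5, PECAM1 and COL1A1). LUM was at 0, and VWF, COL1A2, THY1, PDGFRB, COL3A1 and DCN had at most 7 counts a sample. The summed level was 54.4 and 57.3 CPM in shCON and 113 and 105 CPM in shZDHHC15. Most of it was CDH5, at 44.3 and 46.2 CPM in shCON and 65.7 and 75.8 CPM in shZDHHC15. PECAM1 changed more, from 75 and 56 counts in shCON to 666 and 405 in shZDHHC15 (log2 fold change 2.91, adjusted p = 5.44e-07). In bulk RNA, fewer cells of a type and less RNA per cell cannot be told apart, and the part of these markers in the results below was not tested.

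CXCL1, CXCL2, CXCL3, CXCL5, CXCL6 and CXCL8 are CXC chemokines that carry the ELR motif and draw neutrophils through the receptors CXCR1 and CXCR2. CCL20 attracts CCR6-bearing lymphocytes and dendritic cells, IL6 and LIF signal through the shared receptor chain gp130 to JAK kinases and STAT3, and CSF3 (G-CSF) drives the formation and release of neutrophils. Epithelial and carcinoma cells make these signals after interleukin-1, interleukin-17, TNF or Toll-like receptor stimulation. NF-kappaB, C/EBP and AP-1 factors switch the genes on, and AU-rich elements in the 3′ untranslated region shorten the life of their mRNAs.

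The 6 CXC genes lie together on chromosome 4, and the sequence before their start sites is printed because all 6 share one motif. Promoters were taken from RefSeq (GRCh38.p14) for 8 of the 10 genes; those of LIF and CSF3 were not used here. The 140 bases before each start are printed 5′ to 3′ on the gene's own strand, and capitals mark the match to the kappaB consensus, the letters bound by NF-kappaB, or to its core GGAATTTCC. The first 3 are CXCL1 (chr4:73869253-73869392, plus strand), CXCL2 (chr4:74099196-74099335, minus strand) and CXCL3 (chr4:74038690-74038829, minus strand).
CXCL1: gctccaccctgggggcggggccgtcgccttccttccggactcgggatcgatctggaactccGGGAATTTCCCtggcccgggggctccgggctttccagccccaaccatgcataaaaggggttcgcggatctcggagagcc
CXCL2: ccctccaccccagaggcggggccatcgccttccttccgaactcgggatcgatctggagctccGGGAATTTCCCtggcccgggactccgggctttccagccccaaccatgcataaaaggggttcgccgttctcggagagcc
CXCL3: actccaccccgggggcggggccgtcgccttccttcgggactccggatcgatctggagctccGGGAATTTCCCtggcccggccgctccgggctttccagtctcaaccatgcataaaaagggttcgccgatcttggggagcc

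The next 2, CXCL5 (chr4:73998678-73998817, minus strand) and CXCL6 (chr4:73836538-73836677, plus strand), carry the same capitals further from the start, at 91 and 90 bases before it instead of 78 or 79.
CXCL5: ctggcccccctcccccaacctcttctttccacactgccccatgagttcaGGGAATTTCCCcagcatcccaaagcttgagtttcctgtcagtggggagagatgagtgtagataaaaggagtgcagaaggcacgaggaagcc
CXCL6: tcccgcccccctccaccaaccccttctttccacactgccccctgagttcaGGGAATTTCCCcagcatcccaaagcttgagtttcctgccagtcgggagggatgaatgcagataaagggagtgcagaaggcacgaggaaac

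The last 3 are CXCL8 (chr4:73740429-73740568, plus strand), CCL20 (chr2:227813702-227813841, plus strand) and IL6 (chr7:22727060-22727199, plus strand), which are shown because their kappaB letters differ from those of the first 5.
CXCL8: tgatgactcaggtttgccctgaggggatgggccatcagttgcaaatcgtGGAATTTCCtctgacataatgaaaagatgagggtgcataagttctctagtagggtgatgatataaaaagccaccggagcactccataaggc
CCL20: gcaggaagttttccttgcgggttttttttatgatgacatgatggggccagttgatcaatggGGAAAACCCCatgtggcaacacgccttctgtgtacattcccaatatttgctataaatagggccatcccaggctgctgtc
IL6: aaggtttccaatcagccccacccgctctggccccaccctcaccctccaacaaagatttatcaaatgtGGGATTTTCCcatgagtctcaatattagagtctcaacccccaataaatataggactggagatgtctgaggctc

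In windows of 300 bases (250 before and 50 after the start), searched on both strands, the kappaB consensus was in 7 of the 8 promoters and in 10.8% of 27303 promoters. The core GGAATTTCC, which overlaps the consensus, was in all 6 CXC genes and in 0.472% of the promoters. It is a stretch that the 6 have in common, so its presence in all of them is no test. The printed promoters of CXCL1, CXCL2 and CXCL3 are much alike, as are those of CXCL5 and CXCL6. These matches are therefore not independent. The AP-1 letters TGANTCA were in CXCL8 only, 137 bases before the start (7.76% of promoters). The C/EBP letters TTGCNNAA were in CXCL2 and IL6 (10.6%), the STAT letters TTCNNNGAA were in CXCL5 and CXCL6, where they overlap the kappaB match (7.88%), and the TEAD letters GGAATG were in CCL20, 45 bases before the start (14.0%). TEAD factors are the DNA-binding partners of YAP, the coactivator the study is about. Such a match is a run of letters and no measured binding. Among the CXC genes, which all carry GGAATTTCC, log2 fold changes were -0.51 (CXCL8), -0.37 (CXCL2), 0.07 (CXCL3), 0.51 (CXCL6) and 1.96 (CXCL5). CXCL1 was below the filter on low counts. A part of these letters in the changes was not tested.

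Of the 9 tested genes, 3 were higher in shZDHHC15 (CCL20, CXCL5 and CSF3), 3 were lower (LIF, CXCL8 and CXCL2) and 3 were not called (CXCL3, CXCL6 and IL6), by the quasi-likelihood F-test of edgeR, with p-values adjusted after Benjamini and Hochberg over all tested genes. These counts stand beside 21.7% of all tested genes called higher and 20.3% called lower. The samples of the groups did not overlap in CPM for the same 6 genes, beside 37.2% of all tested genes with no overlap and higher and 35.3% with no overlap and lower. Over the 9 genes the log2 fold change had a median of 0.07, against 0.02 over all tested genes. The genes that rose were all at low levels in shCON, and those that fell were among the most abundant of the 10, a division seen after the values were known. Among tested genes with a mean under 500 counts, 18.9% were higher and 13.4% lower, and among genes at or above it, 25.5% were higher and 30.0% lower.

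**Figure D1:**
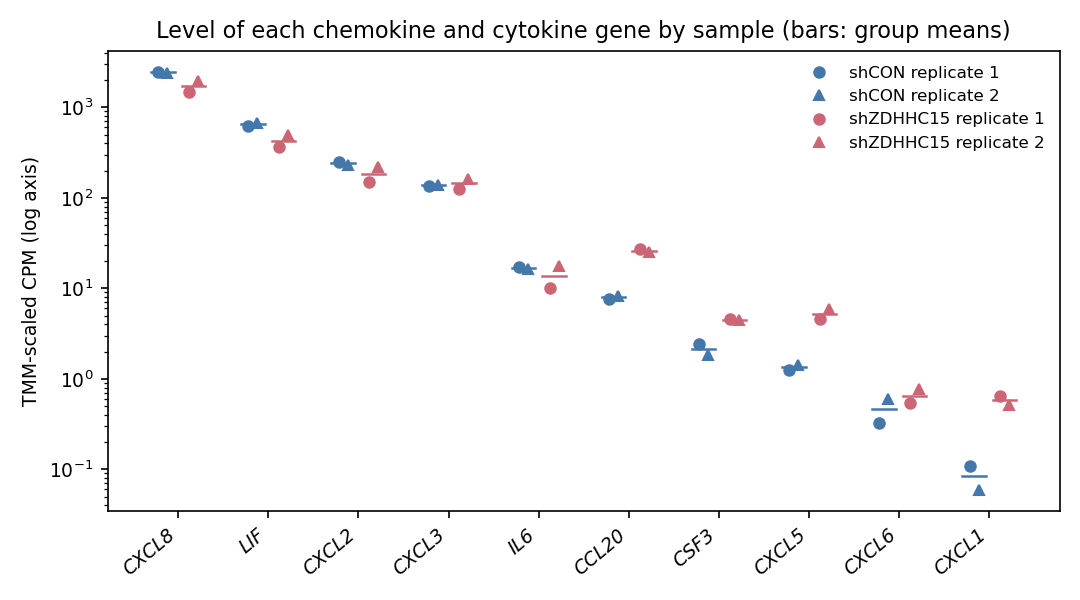
Level of each of the 10 genes in each of the 4 samples, in TMM-scaled CPM on a log axis, with circles for replicate 1, triangles for replicate 2 and bars for group means. The genes span from CXCL8 at 2476 CPM in shCON replicate 1 to CXCL1 with 2 and 1 counts in shCON, and CCL20, CXCL5 and CSF3 lie higher in both shZDHHC15 samples.

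CXCL8 (interleukin-8), the leading neutrophil attractant of human epithelium, was the most abundant of the 10. Its level was 2476 and 2411 CPM in shCON and 1483 and 1948 CPM in shZDHHC15, so both shZDHHC15 samples were below both controls. The mean fell from 2443 ± 45.5 CPM to 1716 ± 329 CPM (SD, n = 2). The log2 fold change was -0.51 (SE 0.11, adjusted p = 0.00178), which is a change of -29.8%. Without shZDHHC15 replicate 1 the log2 fold change was -0.33 and the adjusted p 0.0725, so the call rested on that sample. CXCL8 (ENSG00000169429) spans 73740506 to 73743716 on chromosome 4 of GRCh38, plus strand.

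CXCL2, another ligand of CXCR2, had 248 and 232 CPM in shCON and 151 and 220 CPM in shZDHHC15. The groups did not overlap, but shZDHHC15 replicate 2 lay close to the controls. The log2 fold change was -0.37 (SE 0.134, adjusted p = 0.0351, 95% interval -0.66 to -0.09). This call was lost with library size only (adjusted p = 0.103), with the DESeq2 Wald test (0.284), with no filter on low counts (0.181) and without shZDHHC15 replicate 1 (0.536). CXCL3, its close relative, had 135 and 140 CPM in shCON and 126 and 162 CPM in shZDHHC15. The samples overlapped, with one shZDHHC15 sample below and one above both controls, and the log2 fold change was 0.07 (95% interval -0.17 to 0.31, adjusted p = 0.649). Of the stretches of 100 bases in their transcripts, 5.00% in CXCL2 and 3.27% in CXCL3 occur in another gene, and these were shared between the pair. Of the stretches of 50 bases, 12.5% in CXCL2 and 6.01% in CXCL3 occur in another gene, some of them in CXCL1. Reads from those stretches are uncertain in their gene.

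The CXCL2 to CXCL3 ratio of CPM per kilobase is one comparison within each sample that does not depend on library scaling. It was 2.72 and 2.46 in shCON and 1.77 and 2.00 in shZDHHC15. The CXCL8 to CXCL3 ratio was 17.9 and 16.8 in shCON and 11.5 and 11.7 in shZDHHC15. In both ratios the shZDHHC15 samples were below the controls, with an exact two-sided permutation p of 0.333 in each, the smallest that 2 samples against 2 allow, and 0.40 after adjustment over the 6 ratios computed. The CXCL8 to LIF ratio was 6.87 and 6.28 in shCON and 7.06 and 6.93 in shZDHHC15, and the CXCL8 to CXCL2 ratio was 6.58 and 6.85 against 6.49 and 5.85. These groups did not overlap either, by smaller margins and with the same p. The CXCL8 to IL6 ratio did overlap, at 129.5 and 134.1 in shCON and 133.6 and 100.9 in shZDHHC15 (exact two-sided permutation p = 0.667). The CXCL2 to CXCL1 ratio was 1954 and 3385 in shCON and 202 and 372 in shZDHHC15, with CXCL1 at 1 to 12 counts.

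CXCL5, CXCL6 and CXCL1 were the rare CXC chemokines of this line. CXCL5 had 23 and 24 counts in shCON and 85 and 115 in shZDHHC15, or 1.26, 1.42, 4.57 and 5.86 CPM. Both shZDHHC15 samples lay above both controls, and CXCL5 rose 3.89-fold (log2 fold change 1.96, SE 0.289, adjusted p = 8.43e-05). CXCL6, its closest relative in the cluster, had 6 and 10 counts in shCON and 10 and 15 in shZDHHC15. These overlapped in CPM, and the log2 fold change of 0.51 had a 95% interval of -0.66 to 1.68 (adjusted p = 0.483), which spans both a fall of the size seen for CXCL8 and a rise of more than 2-fold; no change was detectable at this depth. CXCL1 had 2 and 1 counts in shCON and 12 and 10 in shZDHHC15, below the filter on low counts. Its summed counts of 3 and 22 gave a ratio of 6.73 with an exact conditional binomial 95% interval of 2.02 to 35.1, which covers counting error only. With no filter its adjusted p was 0.0295, and in the fits that leave out a sample it was 0.0625 without shCON replicate 1, 0.119 without shCON replicate 2 and 0.0272 without shZDHHC15 replicate 2. Of its stretches of 50 bases, 4.81% also occur in the far more abundant CXCL2, so that some of its few reads are uncertain. In transcripts of CXCL6, 2.16% of the stretches of 50 bases also occur in PPBPP1, a pseudogene that overlaps 94 of its exon bases and had 0 counts in all samples.

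CCL20, the ligand of CCR6, had 140 and 138 counts in shCON and 503 and 494 in shZDHHC15. That is 7.68 and 8.18 CPM against 27.0 and 25.2 CPM, with each pair close together and the groups far apart. CCL20 rose 3.29-fold (log2 fold change 1.72, SE 0.147, adjusted p = 3.97e-07), and its log2 fold change stayed between 1.64 and 1.79 in all 11 alternatives. CCL20 (ENSG00000115009) lies on chromosome 2 from 227805739 to 227817564, plus strand. The RefSeq starts used for the printed promoters can differ from the gene starts, and that of CCL20, at 227813842, lies inside this span.

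LIF, a cytokine that acts through LIFR and gp130, had the second highest CPM of the 10 before gene length is considered. It had 629 and 670 CPM in shCON and 367 and 491 CPM in shZDHHC15. Both shZDHHC15 samples were below both controls, and the mean of LIF fell from 650 ± 28.7 CPM to 429 ± 87.6 CPM (SD, n = 2). The log2 fold change was -0.60 (SE 0.116, adjusted p = 7.82e-04). LIF kept its call in all 11 alternatives, with a largest adjusted p of 0.0250. On chromosome 22, where LIF (ENSG00000128342) runs from 30240447 to 30246851 on the minus strand, the antisense genes LIF-AS1 and AC004264.1 overlap 92 and 175 of its exon bases. LIF-AS1 had 2 to 18 counts and AC004264.1 130 to 186 counts, against at least 6826 for LIF; the strand setting of the counting is not given in the sources used here, so reads of the overlaps cannot be told apart.

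IL6, which signals through IL6R and gp130, had 317 and 276 counts in shCON and 188 and 345 in shZDHHC15. The shZDHHC15 samples, at 10.1 and 17.6 CPM, lay on either side of the controls at 17.4 and 16.4 CPM. The log2 fold change was -0.28 (SE 0.20, 95% interval -0.71 to 0.14, adjusted p = 0.279). It was -0.75 without shZDHHC15 replicate 2 (adjusted p = 0.00282) and 0.057 without replicate 1, so the value turned on which shZDHHC15 sample was used. The antisense gene AC073072.1 overlaps 428 exon bases of IL6 and had at most 2 counts.

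CSF3 had 44 and 31 counts in shCON and 85 and 87 in shZDHHC15. Both shZDHHC15 samples, at 4.57 and 4.43 CPM, were above both controls, at 2.41 and 1.84 CPM. CSF3 rose 2.10-fold (log2 fold change 1.07, SE 0.262, adjusted p = 0.00429) and kept its call in all 11 alternatives. Among all tested genes, 7.51% were at least 2-fold higher and called, and 3.79% at least 2-fold lower and called. Of the 9 tested genes, CCL20, CXCL5 and CSF3 were at least 2-fold higher and 0 were at least 2-fold lower.

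**Figure D2:**
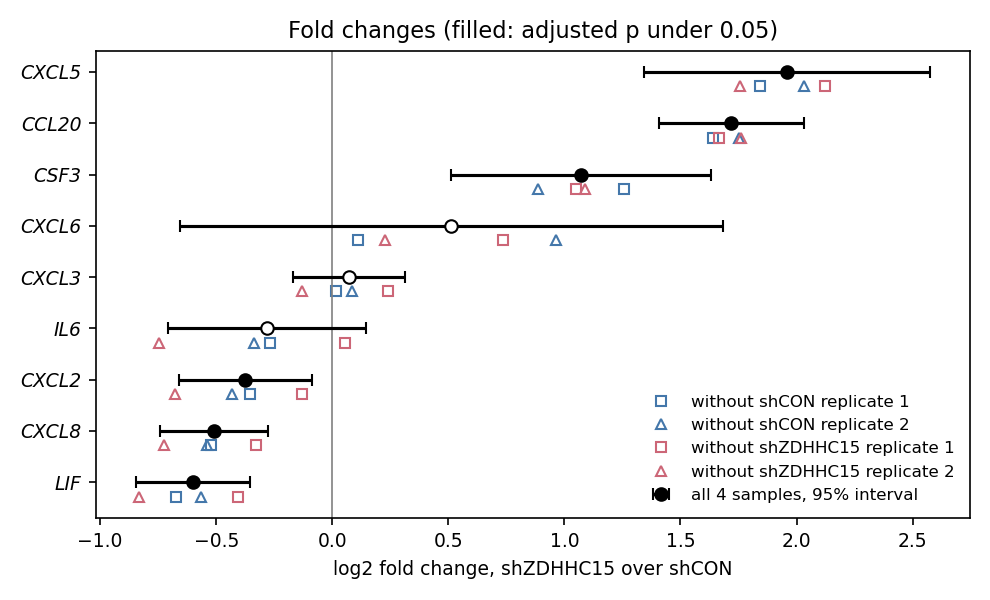
Log2 fold change of shZDHHC15 over shCON for the 9 tested genes, as black circles with 95% intervals (filled where the adjusted p is under 0.05), and as open coloured marks when 1 sample is left out. For CXCL2, CXCL8, LIF, CXCL3 and IL6 the marks farthest from the circle are those without one of the shZDHHC15 samples, with IL6 running from -0.75 to 0.057, while CCL20 stayed between 1.64 and 1.76.

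The shZDHHC15 samples differed from each other in the abundant genes of the set. Replicate 2 was above replicate 1 by 1.46 times for CXCL2, 1.34 times for LIF, 1.31 times for CXCL8 and 1.29 times for CXCL3. Among the 4217 genes whose mean reached 1000 counts, the median absolute log2 difference between these samples was 0.08, and 0.356% to 1.90% of the genes differed by as much as one of the 4. Between the shCON samples the same 4 genes differed by at most 0.09 on the log2 scale, where 57.8% to 83.8% of the genes differed by as much. All 4 were higher in the same sample; in all, 46 of the 4217 genes were higher there by at least as much as CXCL3. Among 53 such genes of the related lists below, FOSL1, TNFAIP3 and CLCF1 were, by 0.58, 0.44 and 0.39 on the log2 scale, while CXCL10, JAK2 and LIFR differed as much in the opposite direction (-0.70, -0.45 and -0.39). IL6 differed in the same direction, by 0.80 on the log2 scale at fewer counts. CXCL5 (0.36) and CXCL6 (0.51) did so too, at fewer counts still. Genes of the related lists with a mean under 1000 counts are not among the 53, and some of them also differed. CSF2 had 21.1 CPM in shZDHHC15 replicate 1 and 48.4 CPM in replicate 2. CXCL11 went the other way, at 90.4 and 62.6 CPM. CCL20 and CSF3 were near equal between these samples (-0.10 and -0.04), and CXCL1, at 12 and 10 counts, was at -0.34.

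Levels of different genes were compared per kilobase of gene length. In shCON the mean levels ran from CXCL8 at 1074 CPM per kilobase through LIF (164), CXCL2 (160), CXCL3 (61.9), IL6 (8.16), CCL20 (4.98), CSF3 (0.957), CXCL5 (0.529) and CXCL6 (0.211) to CXCL1 (0.0652). LIF and CXCL2 were not separated, since LIF had 159 and 169 and CXCL2 165 and 155 CPM per kilobase in the shCON samples. In shZDHHC15 the mean of CXCL2 (123) was above that of LIF (108), again with overlapping samples, at 100.5 and 146 against 92.4 and 124. CCL20 (16.4) stood above IL6 (6.69) in both shZDHHC15 samples. CXCL5 (2.05) and CSF3 (2.03) were not separated, and CXCL1 (0.445) was above CXCL6 (0.298), each from 10 to 15 counts a sample.

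The sum of the 10 levels was 1488 and 1462 CPM per kilobase in shCON and 928 and 1229 in shZDHHC15. Both shZDHHC15 samples were lower, with a mean of 1079 ± 213 against 1475 ± 18.9 (SD, n = 2), or 73.1% of shCON. The exact two-sided permutation p was 0.333, which is the smallest this design allows. CXCL8 alone made up 73.1% and 72.5% of the sum in shCON and 70.3% and 69.7% in shZDHHC15, so the sum mostly follows CXCL8. CCL20, CXCL5 and CSF3 together made up 0.430% and 0.446% in shCON and 2.24% and 1.63% in shZDHHC15.

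**Figure D3:**
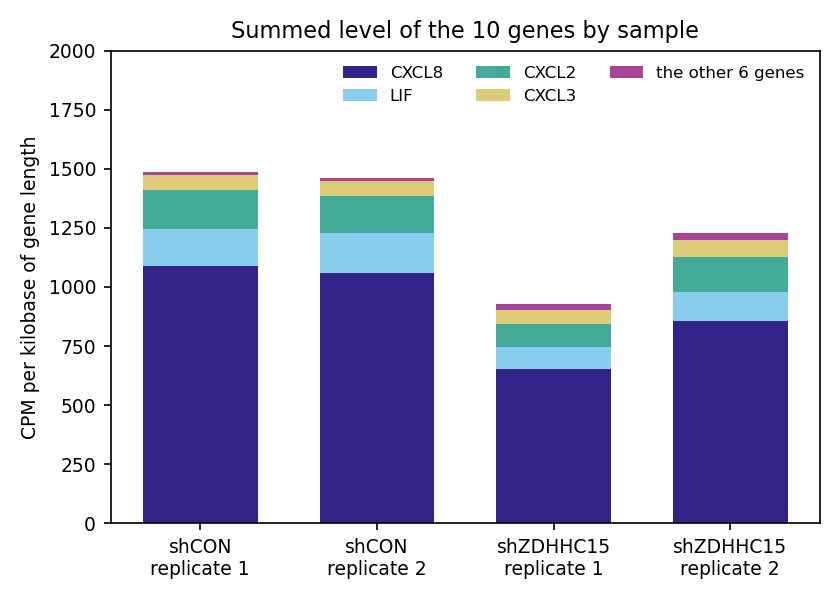
Summed level of the 10 genes in each sample, in CPM per kilobase of gene length, stacked by gene with the 6 least abundant genes in one colour. The shZDHHC15 bars end at 928 and 1229, below the shCON bars at 1488 and 1462, and CXCL8 is the largest part of each bar.

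The 6 CXC genes lie within 359 kilobases of chromosome 4 (73740506 to 74099293), a span that holds 16 genes. In the window that reaches 500 kilobases further on each side there were 28 other genes, of which 13 had 0 counts in all samples and 9 were tested. Of these 9, ANKRD17, AFP and RASSF6 were higher and 0 were lower at the adjusted p of 0.05, beside 21.7% and 20.3% of all tested genes. ANKRD17, which encodes an ankyrin repeat protein, had a log2 fold change of 0.83 (adjusted p = 4.51e-05). RASSF6, a RAS-association domain gene, had 83 and 32 counts in shCON and 145 and 191 in shZDHHC15 (log2 fold change 1.42, adjusted p = 9.90e-04). AFP (alpha-fetoprotein) had 7 and 6 counts in shCON and 24 and 21 in shZDHHC15 (log2 fold change 1.65, adjusted p = 0.0142), and its call was lost with the DESeq2 Wald test and in 3 of the 4 fits that leave out a sample. The platelet chemokine genes of the same cluster, PF4 and PF4V1, were at 0 in all samples, and PPBP had 6 to 19 counts. Neighbours did not share a direction: CXCL8 and CXCL2 fell, and CXCL5, which lies between them, rose.

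**Figure D4:**
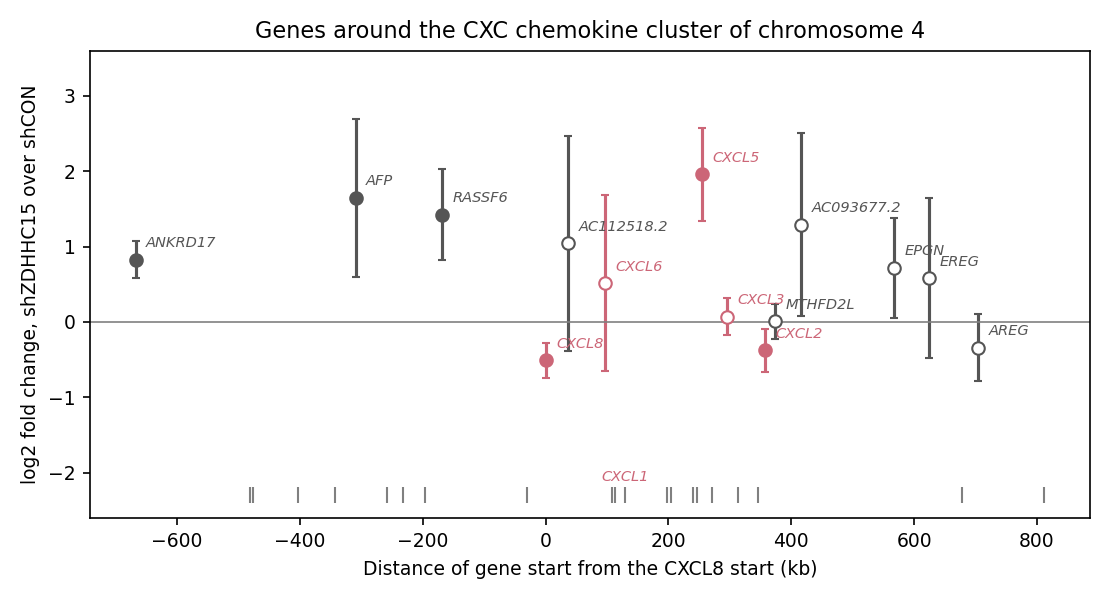
Log2 fold change of shZDHHC15 over shCON with 95% intervals for the tested genes in the window around the CXC cluster, against the distance of each gene's start from the CXCL8 start in kilobases. Red marks are the CXC genes of the set, grey marks the other genes, filled marks have an adjusted p under 0.05, and ticks along the bottom are genes that were not tested; CXCL5 at 1.96 stands between CXCL8 at -0.51 and CXCL2 at -0.37.

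The 3′ untranslated regions of the 10 genes, taken from GENCODE release 29, were searched for the AU-rich pentamer ATTTA. IL6 had 6 in 429 bases (14.0 per kilobase), CXCL2 had 10 in 721 bases (13.9) and CXCL8 had 9 in 1252 bases (7.19). LIF was the least dense, with 7 in 3204 bases (2.19 per kilobase). The median was 7.14 per kilobase over the 10 genes and 1.57 over 12798 tested coding genes. The longer element TATTTAT was in 9 of the 10, all but CXCL6, and in 32.7% of the tested coding genes. The 3 genes that rose had 5.51 to 8.20 pentamers per kilobase, and the 3 that fell had 2.19 to 13.9.

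The chemokine receptors and the receptor of CSF3 had few or no counts, and the receptor chains for IL6 and LIF had far more. CXCR2, ACKR1 and CCR6 had 0 counts in all samples, each of which allows up to 3 counts, CXCR1 had 1 count in each shCON sample and 0 in shZDHHC15, and CSF3R had 2 and 0 counts in shCON and 6 and 5 in shZDHHC15. Of the 8 receptors, 3 were tested and 1 was called. LIFR, the LIF receptor, had 606 and 470 counts in shCON and 1700 and 1372 in shZDHHC15, and rose with a log2 fold change of 1.40 (SE 0.137, adjusted p = 1.68e-06). IL6ST, which encodes gp130, had 2217 and 1390 counts in shCON and 2342 and 2571 in shZDHHC15 (log2 fold change 0.33, adjusted p = 0.0679), with the shCON samples far apart; without shCON replicate 1 its log2 fold change was 0.61 and it was called. IL6R had 551 and 534 counts in shCON and 677 and 758 in shZDHHC15 (log2 fold change 0.28, adjusted p = 0.0640). LIF fell in the samples in which the transcript of its receptor rose. IL6ST and IL6R were both called higher with library size only and in the fit with the replicate number as a block.

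Of 13 other cytokines and receptors of the gp130 family, 8 were tested, 2 were higher and 2 lower (median log2 fold change 0.18). For this and the other lists, the shares over all tested genes were 21.7% higher and 20.3% lower, with a median of 0.02. OSMR, the oncostatin M receptor that pairs with gp130, rose by 0.90 on the log2 scale (adjusted p = 3.33e-06), and EBI3, a subunit of interleukin-27, rose from 12 and 7 counts to 107 and 94 (3.26, adjusted p = 4.29e-06). CLCF1, which acts through the CNTF receptor, had a log2 fold change of -1.10 (adjusted p = 6.24e-06), and IL11 had one of -1.36, from 338 and 330 counts to 103 and 181 (adjusted p = 5.93e-05). LIF, CLCF1 and IL11 were the gp130 cytokines with lower calls, and EBI3 was the cytokine subunit with a higher call. OSMR and LIFR were the receptor chains with higher calls, a division seen after the values were known. The other tested genes of this list, and IL6, IL6ST and IL6R, were not called.

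All 10 genes of the JAK-STAT3 list were tested, 4 were higher and 1 was lower (median 0.27). The kinases JAK1 and JAK2 had log2 fold changes of 1.00 (adjusted p = 8.39e-07) and 1.34 (2.82e-06), and the transcription factor STAT3 had 0.73 (1.29e-05). SOCS3, a STAT3 target that feeds back on gp130, had a log2 fold change of 0.40 (adjusted p = 0.0243), a call lost in 4 of the 11 alternatives (DESeq2 Wald test, no filter, without shCON replicate 1 and without shZDHHC15 replicate 1). PIM1, a kinase gene that STAT3 induces, was the lower one at -0.56 (adjusted p = 2.45e-04).

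Of 16 NF-kappaB and C/EBP factors, all tested, 4 were higher and 5 lower (median 0.09), beside 21.7% and 20.3% of all tested genes. CEBPB, a C/EBP factor of acute inflammation, rose from 511 ± 26.6 to 947 ± 30.1 CPM (SD, n = 2; log2 fold change 0.89, adjusted p = 1.65e-06). BCL3 and REL, an NF-kappaB cofactor and subunit, had log2 fold changes of 1.05 (adjusted p = 1.09e-06) and 1.16 (1.13e-04). The subunits RELA and RELB were called lower, at -0.29 (adjusted p = 0.0199) and -0.30 (0.0266). The subunits NFKB1 and NFKB2 were not called. TNFAIP3, which encodes A20 and is itself an NF-kappaB target and inhibitor, had 11420 and 9939 counts in shCON and 4218 and 6037 in shZDHHC15 (log2 fold change -1.19, adjusted p = 2.23e-06). The lower calls of this list numbered between 2 and 6 across the alternatives.

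Of 10 AP-1 factors, all tested, 6 were lower and 1 was higher (median -0.49). ATF3, a stress-induced member, had 3225 and 3047 counts in shCON and 975 and 1146 in shZDHHC15, a log2 fold change of -1.69 (adjusted p = 7.06e-09). FOSL1, MAFF and JUN had -1.20 (adjusted p = 9.56e-06), -1.03 (3.44e-06) and -0.77 (7.68e-06). FOSL2, named after its value was seen, was the higher one at 0.24 (adjusted p = 0.0339), a call lost in 7 of the 11 alternatives.

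The list of inducing signals held 20 genes: cytokines, their receptors, the adaptors and kinases behind them (such as MYD88 and IRAK1) and IL1RN, an antagonist. Of these, 19 were tested, 11 were higher and 1, the kinase IRAK1, was lower (median 0.51). TLR2 and TLR3, receptors for microbial lipoprotein and double-stranded RNA, had log2 fold changes of 2.23 (adjusted p = 3.89e-07) and 2.59 (7.14e-05). IL1B rose from 49 and 56 counts to 165 and 268 (1.91, adjusted p = 2.85e-05), and IL17C, an epithelial interleukin-17, from 13 and 10 counts to 102 and 106 (3.04, adjusted p = 3.52e-06). TNF had 40 and 51 counts in shCON and 42 and 60 in shZDHHC15 (log2 fold change 0.04, adjusted p = 0.933).

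Of 15 mRNA decay and stability factors, all tested, 3 were higher and 3 lower (median -0.01). ZC3H12A, the ribonuclease regnase-1 that cleaves IL6 mRNA, had a log2 fold change of 0.59 (adjusted p = 9.52e-05). TIA1, an RNA-binding protein, had 0.43 (adjusted p = 0.00596). MAPKAPK2, the kinase that keeps AU-rich mRNA stable, had -0.53 (adjusted p = 3.07e-04), and CNOT7, a deadenylase, had -0.42 (adjusted p = 0.00508), a call lost without shZDHHC15 replicate 1.

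A list of 20 genes held other chemokines and colony-stimulating factors, with the cytokines IL24 and IL32, which are neither. Of these, 16 were tested, 10 were higher and 2, IL24 and the chemokine CCL26, were lower (median 1.29, and the same when CCL8 and CXCL9 are counted at their bounds against 3 counts). CXCL10, an attractant of T cells through CXCR3, went from 69 and 57 counts in shCON to 8305 and 5378 in shZDHHC15 (log2 fold change 6.65, adjusted p = 2.41e-11). CXCL11, another CXCR3 ligand, had a log2 fold change of 5.06 (adjusted p = 1.77e-10), and CXCL17, a mucosal chemokine, had 3.13 (adjusted p = 1.16e-09). CCL8 had 0 and 2 counts in shCON and 98 and 69 in shZDHHC15, a ratio of the summed counts of 76.6 with an exact conditional binomial 95% interval of 20.9 to 638. CXCL10 went from 3.58 ± 0.287 to 360 ± 122 CPM (SD, n = 2).

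**Figure D5:**
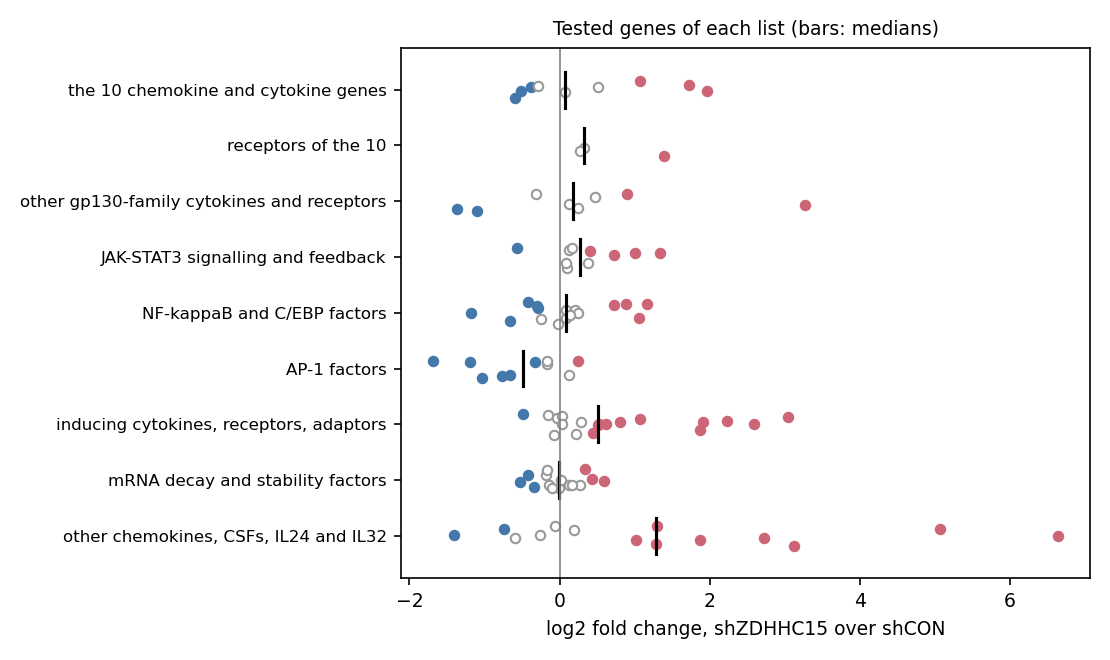
Log2 fold change of shZDHHC15 over shCON for each tested gene of the 10-gene set and of 8 related lists, with red and blue for genes called higher and lower at an adjusted p of 0.05, open grey marks for the rest and black bars for medians. CCL8 and CXCL9, with at most 2 counts in shCON, are not drawn; AP-1 factors lie mostly below 0 (median -0.49) and the genes of the last list mostly above it (median 1.29).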

How the data were processed

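RNA-seq of HCC1954 cells was compared between 2 shCON and 2 shZDHHC15 samples, grouped by their titles. The authors deposited 1 table of raw counts per gene, not normalized, with 58735 genes; per the labels, the submitters' processing notes name HISAT2, StringTie, SAMtools and hg38, with no roles or versions. The counting tool's strand setting is not given in the sources used here. The NEBNext Ultra libraries came from total RNA. Of the gene identifiers, 58724 match GENCODE release 29 by identifier, start and end, and exons, 3′ untranslated regions and shared stretches were read from it. All 4 columns were used.

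Total counts were 18496026 and 17560982 (shCON) and 18207192 and 19118704 (shZDHHC15); 3 counts correspond to 0.153 to 0.178 CPM. Genes were filtered with filterByExpr (15817 kept), scaled by TMM factors (0.987, 0.962, 1.02 and 1.03) and fitted in R 4.3.3 with limma 3.58.1 and edgeR 4.0.16, using its quasi-likelihood functions glmQLFit (legacy = FALSE) and glmQLFTest. P-values were adjusted after Benjamini and Hochberg, and 0.05 was the threshold. The F statistic and the fold change gave the standard error and the interval. On counts simulated for this comparison, 200 of 15430 genes were given a log2 change of 1.5. Of these edgeR recovered 85.5%, with 3.93% false among its calls. Recovery of smaller changes was not tested. In the data 42.0% of the tested genes were called, and the samples of a group may be technical. The simulation imitated neither, so its rates need not hold for these calls. Single values were compared by exact two-sided permutation over samples (scipy 1.17.1). Counting intervals cover counting error only, since the reads carry no molecular identifiers.

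The 10 genes, the gene lists and the motifs were chosen with earlier results of these data known. Named are the 10 genes, all their receptors and every called gene of the chromosome 4 window. Named too are up to 4 called genes per related list with the largest change whose higher group averaged 50 counts or more. The following were named after their values were seen: SOCS3, TNF, FOSL2, PF4, PF4V1, PPBP, MYD88, IRAK1, IL1RN, IL24, IL32, CCL26, CSF2, RELA, RELB, NFKB1, NFKB2 and the marker genes. Genes of similar pattern were not sought, since 4 samples in 2 groups hold only this contrast. The alternatives were DESeq2 1.42.0 size factors, library size only, the DESeq2 Wald test, no filter, a minimum of 10 counts per sample, edgeR's legacy quasi-dispersion, a replicate block, and leaving out each sample, where the lone sample is assumed to vary like the other group.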

Additional observations from a re-analysis of the deposited data

How the results depend on the processing

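The 9 tested genes were refitted under 11 settings, which gave 98 values: 90 kept their direction and their side of the threshold, 5 lost a call, 1 gained one and 2 changed sign. CCL20, CXCL5, CSF3 and LIF kept their calls throughout. The log2 fold change of CXCL2 was -0.30 with library size only, -0.39 with the DESeq2 Wald test and -0.39 with no filter, each without a call. With 1 sample left out it ran from -0.68 to -0.13 for CXCL2, -0.73 to -0.33 for CXCL8, -0.13 to 0.24 for CXCL3, -0.75 to 0.057 for IL6 and -0.83 to -0.41 for LIF. CXCL3 was at -0.13 without shZDHHC15 replicate 2, and IL6 at 0.057 without shZDHHC15 replicate 1. The number of the 10 called lower then ran from 1 (without shZDHHC15 replicate 1) to 4, against 3. The number of all genes called higher was 3427, and 2282 with no filter; leaving out a sample gave 2525 to 3405 higher and 2203 to 3478 lower. CXCL6 has no value with at least 10 counts in every sample. The causes were not tested. The sum of the 10 levels kept its direction, from -0.67 to -0.26 with 1 sample left out. Of 425 values for 39 other named genes, 399 kept their direction and side, 19 lost a call, 5 gained one and 2 changed sign, both of TNF (uncalled), which ran from -0.21 to 0.27 with 1 sample left out. Samples of the same replicate number shared no shift across genes (correlation of the deviations 0.034). This cannot tell whether they were prepared in pairs, which is not stated. The fit with the replicate block called 3723 genes higher and 3502 lower, gave -0.40 for CXCL2 and changed no call among the 9. CXCL1 and CXCL6, with at most 15 counts a sample, are limited by depth.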
